A study of Mus musculus with 13 samples.

Results

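Transcripts of the cytosolic ribosomal proteins were followed in T cells sorted from B16-F10 tumors, a transplantable mouse melanoma line. The members were the rows of the deposited gene table whose symbol begins with Rpl or Rps and a digit, together with Rplp0, Rplp1, Rplp2 and Rpsa, leaving out the Rps6k kinases and rows named as pseudogenes. The choice used names and no measured value. It took 86 of 12963 rows, 49 named for the large and 37 for the small ribosomal subunit. The GENCODE annotation (GRCm38) lists 81 of them as protein coding. It lists Rps3a2, Rps3a3 and Rpl6l as processed pseudogenes, which are retrotransposed copies, and Rps4l and Rpl37rt as transcribed copies of the same kind. Rps19bp1, which encodes a binding partner of RPS19, and Rpl7l1, a paralog of Rpl7 that acts in ribosome assembly, carry a matching name without being structural proteins of the mature ribosome.

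All mice, controls included, were Foxp3-EGFP-DTR. In this line cells that express Foxp3, the lineage factor of regulatory T (Treg) cells, also carry EGFP and a receptor for diphtheria toxin (DTx), and giving DTx kills them. B16-F10 cells had been injected under the skin. Animals received either DTx or saline (PBS), and 13 sorted populations gave 1 library each. Treg cells came from PBS-treated mice only (Treg PBS, n = 3). Conventional CD4+ T cells were taken from PBS-treated (CD4 PBS, n = 2) and DTx-treated mice (CD4 DTx, n = 3), as were CD8+ T cells (CD8 PBS, n = 2; CD8 DTx, n = 3). The strain background, sex and age of the mice were not used here. The study calls the replicates biological and isolated on independent days, and whether the same number marks the same day or a replicate was 1 mouse or a pool is not given in the sources used here.

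The ribosome has a small subunit that reads the messenger RNA and a large subunit that joins amino acids, and each carries many small, mostly basic proteins made in matched amounts. Messenger RNAs of these proteins commonly start with a C and a run of pyrimidines, the 5′ terminal oligopyrimidine (TOP) motif, through which the kinase complex mTORC1 and the RNA-binding protein LARP1 control their translation and stability. Ribosome production is held low in resting lymphocytes and rises when T cells are activated, with the transcription factor Myc driving many of the assembly factors.

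A start of this kind was annotated for some of the members. RefSeq (GRCm38.p6) gave a promoter entry for 62 of the 86 members, some with several entries. A gene was counted if any of its entries matched. In 14 of the 62 (22.6%) an annotated first base was a C followed by at least 4 bases that were each C or T, read on the sense strand. The same held for 2.82% of the other genes tested that had an entry and for 3.01% of all genes with an entry. A few such starts are printed as examples, with 20 bases on either side of the boundary before the first transcribed base and the pyrimidine run from that base in capitals. They lie at chr3:90213629-90213668 on the minus strand for Rps27, chr2:39005112-39005151 minus for Rpl35, chr17:33955646-33955685 minus for Rps18, chr4:86857348-86857387 minus for Rps6 and chr11:114668560-114668599 plus for Rpl38.
Rps27: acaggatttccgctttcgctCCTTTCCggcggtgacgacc
Rpl35: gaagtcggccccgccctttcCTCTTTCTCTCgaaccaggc
Rps18: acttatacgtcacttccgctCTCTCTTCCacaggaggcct
Rps6: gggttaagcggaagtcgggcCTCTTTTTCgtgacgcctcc
Rpl38: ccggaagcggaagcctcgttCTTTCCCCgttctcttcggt
The letters CTTTCC lay on the sense strand of a 300-base entry in 26 of the 62 members (41.9%), against 16.95% of the other genes tested that had an entry. A match is a description of these letters, and the starts are annotated, not measured in these cells.

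Near-identical copies bear on how far these genes can be read, because only uniquely mapped reads were counted. More than 50% of the 50-base windows along the transcript were shared with another gene's transcript in 44 of the 86 members, and the median share was 51.4%. Rps27 was the plainest case among the genes that changed. Its coding sequence of 252 bases is identical to that of the retrotransposed copy Rps27rt, and 98.6% of its windows occur in other genes, whereas 22.4% of the windows of its diverged paralog Rps27l do. The coding sequences of Rps27 (gene at chr3:90212522-90213651, minus strand) and Rps27l (gene at chr9:66946086-66949516, plus strand) are printed from GENCODE because these genes moved in opposite directions. Capitals in Rps27l mark the 60 bases that differ, which leaves 76.2% identity, so reads of the pair can be told apart along most of their length.
Rps27: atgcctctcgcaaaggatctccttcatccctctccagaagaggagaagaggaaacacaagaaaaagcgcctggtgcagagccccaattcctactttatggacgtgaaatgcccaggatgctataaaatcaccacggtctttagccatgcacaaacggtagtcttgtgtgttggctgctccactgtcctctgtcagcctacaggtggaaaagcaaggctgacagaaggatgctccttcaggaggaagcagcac
Rps27l: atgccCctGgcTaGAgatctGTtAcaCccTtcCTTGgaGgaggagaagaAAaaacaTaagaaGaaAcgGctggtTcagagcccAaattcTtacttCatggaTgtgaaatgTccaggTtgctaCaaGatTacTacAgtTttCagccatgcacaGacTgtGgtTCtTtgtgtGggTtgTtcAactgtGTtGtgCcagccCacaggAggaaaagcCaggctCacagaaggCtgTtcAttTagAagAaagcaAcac

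Values are given as normalized reads, which are read counts divided by 1 size factor per library. Between 15947556 and 34140486 reads were recovered per library. The summed level of Cd3e, Cd3d and Cd3g was 51520.3 to 99224 in all libraries, and Cd4 stood at 10595 to 32504 in Treg PBS and both CD4 groups and at 0 to 413 in both CD8 groups. The summed level of Foxp3, Ikzf2 and Lrrc32 was 10511 to 16128 normalized reads in Treg PBS and 174 to 1337 in the other groups. Foxp3 alone was 1178 to 1896 in Treg PBS and 0 to 12.1 in the other groups, where Ikzf2 alone was 157 to 1335. The summed level of Cd8a and Cd8b1 was at least 63851 in both CD8 groups and at most 3662 in the rest. All 8 genes of a list of resting T cell markers (Ccr7, Tcf7, Lef1, Il7r, Klf2, S1pr1, Bach2 and Satb1) were detected, and their summed level differed widely between groups. It was 182336 to 239094 in CD4 PBS and 122586 to 170171 in CD8 PBS, but 13464 to 33211.5 in Treg PBS, 68383.5 to 77988 in CD4 DTx and 33204.5 to 56670.1 in CD8 DTx. The 6 cell cycle genes Mki67, Top2a, Ccnb1, Cdk1, Birc5 and Mcm5 ran the other way, at 2272 to 6556 in the PBS-treated conventional groups and 7008 to 35271 in the remaining ones. The part of the resting and dividing states in the differences given here was not tested. Fewer cells of a type and less RNA per cell cannot be told apart in these sorted bulk samples.

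Summed over all members, ribosomal protein reads took the largest share of the library in CD8 PBS and the smallest in Treg PBS. The share was 2.19%, 2.25% and 1.37% in Treg PBS replicates 1 to 3, 3.13% and 2.24% in CD4 PBS, 3.39% and 3.56% in CD8 PBS, 2.49%, 1.80% and 2.12% in CD4 DTx, and 2.74%, 2.55% and 1.92% in CD8 DTx. Both CD8 PBS libraries lay above all other libraries, while the ranges of the other 4 groups overlapped. The group means were 1.94% ± 0.49 (SD, n = 3) in Treg PBS, 2.68% ± 0.63 (n = 2) in CD4 PBS, 3.47% ± 0.13 (n = 2) in CD8 PBS, 2.14% ± 0.34 (n = 3) in CD4 DTx and 2.40% ± 0.43 (n = 3) in CD8 DTx. CD8 PBS held the highest group mean for 71 of the 86 members, and Treg PBS held the lowest for 51. Summed reads of large-subunit rows exceeded those of small-subunit rows in every library, by a ratio of 1.26 in both CD8 PBS libraries and of 1.25 to 1.56 over all 13.

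**Figure D1:**
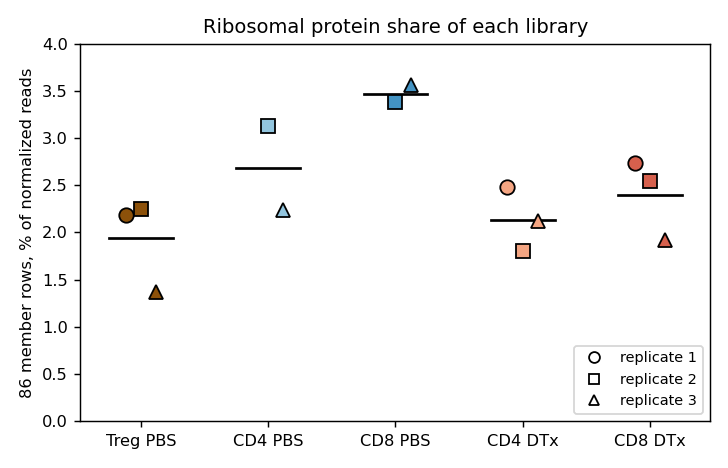
Share of normalized reads taken by the 86 ribosomal protein rows (vertical axis, percent, from 0) in each of the 13 libraries, by group; symbols give the replicate and bars the group mean. Both CD8 PBS libraries (3.39% and 3.56%) sit above the rest, and Treg PBS replicate 3 (1.37%) sits lowest.

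The members moved up and down together from library to library. The median spread within groups was 0.36 (SD, log2 scale) for the members and 0.45 for all genes tested. After each library was centred on its own mean over the members, the members' median fell to 0.13, and 85 of 86 were less spread than before. Treg PBS replicate 3 held the lowest value of all 13 libraries for 76 of the 86 members, and CD8 PBS replicate 3 held the highest for 47. The exception to the fall in spread was Rps4l, a row of few reads (2.73 to 115 normalized reads), with an SD of 1.23 before and 1.39 after centring. Because Treg PBS replicate 3 stood so low, the medians of the Treg comparisons are also given without it. The call counts against CD4 PBS and CD8 PBS are given without it as well.

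**Figure D2:**
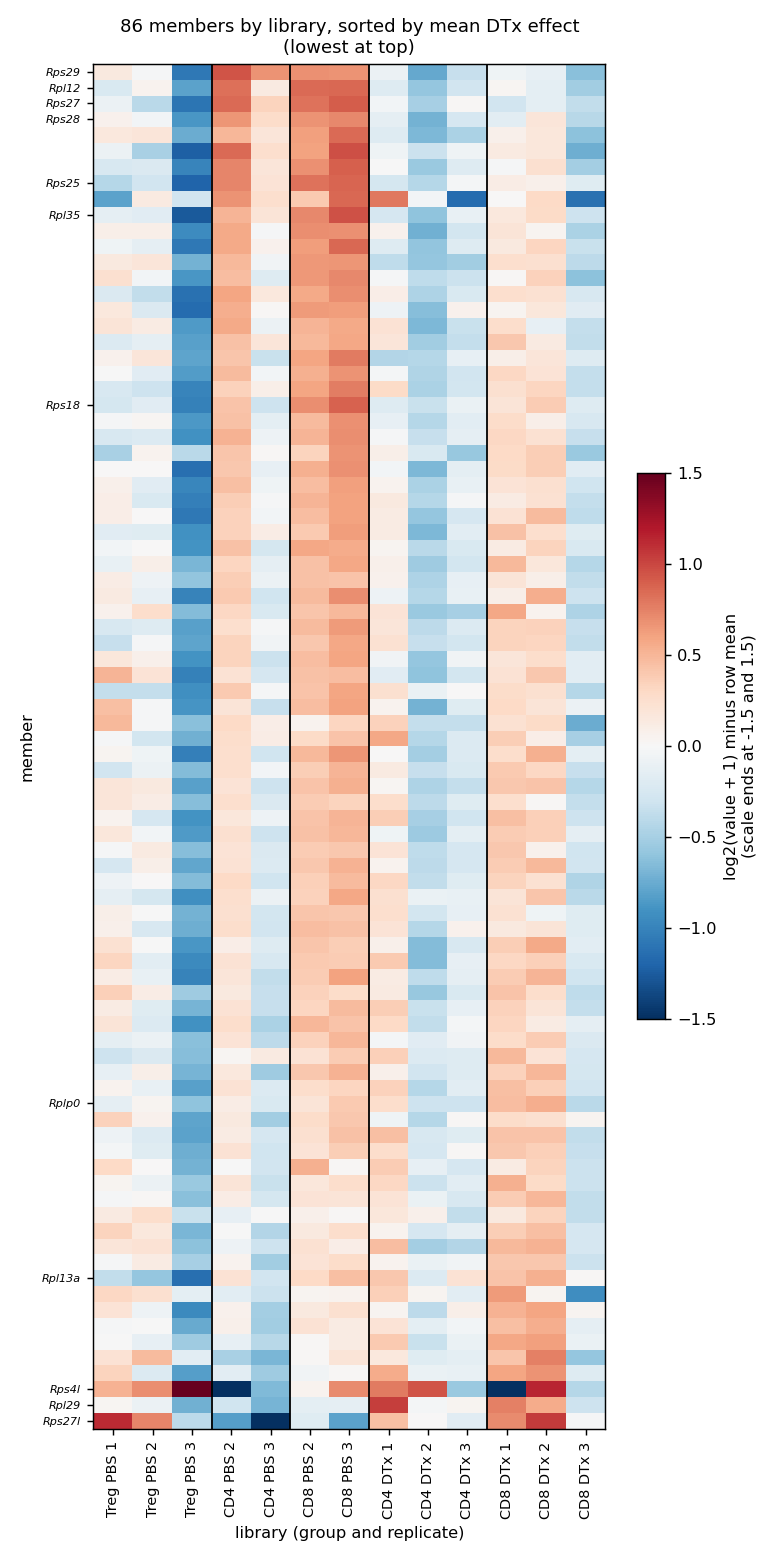
Each of the 86 members (rows, sorted by the mean DTx effect) in each of the 13 libraries (columns); color gives log2(value + 1) minus the row's mean, from -1.5 (blue) to 1.5 (red), and some rows are named. Whole columns shift together, with Treg PBS replicate 3 lowest for 76 members, while Rps29, Rpl12 and Rps27 at the top and Rps27l and Rpl29 at the bottom depart from their columns.

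Among protein-coding members the level per length, as mean normalized reads per 1000 coding bases, was 32206 for Rpl13, which was among the 3 highest. It was lowest for Rps27rt at 610.0, Rps19bp1 at 719 and Rpl22l1 at 2473, which are the retrotransposed copy, the binding partner and a paralog rather than the usual subunit proteins. Rpl7l1 varied least over the 13 libraries (SD 0.24 on the log2 scale), followed by Rpsa, Rpl10, Rpl11 and Rpl23 at up to 0.32. Rps4l varied most (SD 1.41), followed by Rps27l at 0.82, Rps3a3 at 0.67, Rps29 at 0.62 and Rps27rt at 0.62. Rps4l (2.73 to 115 normalized reads) and Rps3a3 (13.2 to 56.0) were low, and counting error adds to their spread. In CD4 PBS replicate 2, Rps4l lay below the level of 3 reads (4.10).

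The first comparison asks how tumor Treg cells differ from the conventional CD4+ T cells beside them. Ribosomal protein transcripts were mostly lower in Treg cells, with a negative log2 fold change for 72 of 86 members and a median of -0.32 on the log2(value + 1) scale, beside 0.01 for all genes tested. The size of this median rests on single libraries, since it was -0.06 without Treg PBS replicate 3 and also -0.06 without CD4 PBS replicate 2, and -0.55 without CD4 PBS replicate 3. The median was negative under the 3 other scalings that did not rest on the members, whereas centring each library on the members sets it near 0 (-0.03) by construction and moves the median of all genes to 0.30. The limma test with Benjamini-Hochberg adjustment over all 12667 genes called 6 members (6.98%), where 20.4% of all genes were called. All 6 were named for the small subunit and 0 of the 49 for the large. Of them 5 were lower in Treg cells (6.91% of all genes were called lower) and 1 was higher (13.5% of all genes). The groups did not overlap for 27 members (31.4%, against 56.7% of all genes), with Treg PBS below in 23 of them. Treg PBS lay below without overlap in 3477 of all 12667 genes. In this and the following comparisons no member combined the test with a 4-fold change, which 10.2% of all genes did here, 9.41% in Treg against CD8 PBS, 6.85% and 5.46% in the DTx effects on CD4+ and CD8+ T cells, 9.47% in the mean DTx effect and 4.93% in CD8 DTx against Treg PBS.

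The largest decreases among called members were in Rps27, Rps25 and Rps29, all small-subunit proteins. The copy Rps27rt had a log2 fold change of -1.15 ± 0.48 and was not called (limma adjusted p = 0.111). Rps27 stood at 6586, 5275 and 3279.7 normalized reads in the Treg libraries, 12567 and 8777 in CD4 PBS, 12255 and 13155 in CD8 PBS, 6814, 4959 and 7051 in CD4 DTx and 5701, 6304 and 5420.4 in CD8 DTx. Every library of the PBS-treated conventional cells lay above every other library. The difference from CD4 PBS was 2.17-fold (log2 fold change -1.12 ± 0.28 SE, limma adjusted p = 0.0144). Rps25, needed for initiation at viral internal ribosome entry sites, stood at 4406, 4861 and 2569 normalized reads in the Treg libraries against 9807 and 6787 in CD4 PBS, again with no overlap (log2 fold change -1.10 ± 0.27, limma adjusted p = 0.0127). Rps29, a zinc-binding protein of the small-subunit head and the shortest of the 3, stood at 4025, 3607 and 1726 in the Treg libraries against 6980.4 and 5809 in CD4 PBS (log2 fold change -1.12 ± 0.33, limma adjusted p = 0.0332). Rps7 and Rps19, the latter needed for maturation of the small subunit, were also lower, with log2 fold changes of -0.94 each (limma adjusted p = 0.0342 and 0.0454). Over 20 alternative settings and thresholds the log2 fold change reached -0.82 for Rps27, -0.81 for Rps25, -0.74 for Rps29, and -0.65 for Rps7 and Rps19. These calls were lost in 4, 4, 7, 8 and 11 of the 20, and no direction was reversed. Stricter thresholds and changes of filter, trend or groups fitted keep the main log2 fold change and could not reverse it.

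Rps27l, the paralog of Rps27 that p53 induces in other settings, was the only member called higher. It stood at 2278, 1739.8 and 797 normalized reads in the Treg libraries, 590.4 and 324 in CD4 PBS, 919.7 and 601 in CD8 PBS, 1424, 1050.1 and 931 in CD4 DTx and 1710.0, 2161 and 1036 in CD8 DTx. All Treg PBS libraries lay above both CD4 PBS libraries, by 3.35-fold (log2 fold change 1.74 ± 0.45, limma adjusted p = 0.0177), and overlapped with CD8 PBS. Without Treg PBS replicate 3, Rps27l rose to a log2 fold change of 2.18 (limma adjusted p = 0.00408), while 3 members in all were called instead of 6. Leaving out CD4 PBS replicate 2 or 3 left 1 and 2 calls, so the count rests on the small CD4 PBS group, whose remaining library is then assumed to vary like the other groups. With the replicate number as a block, 17 members were called (16 lower), where 25.3% of all genes were.

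**Figure D3:**
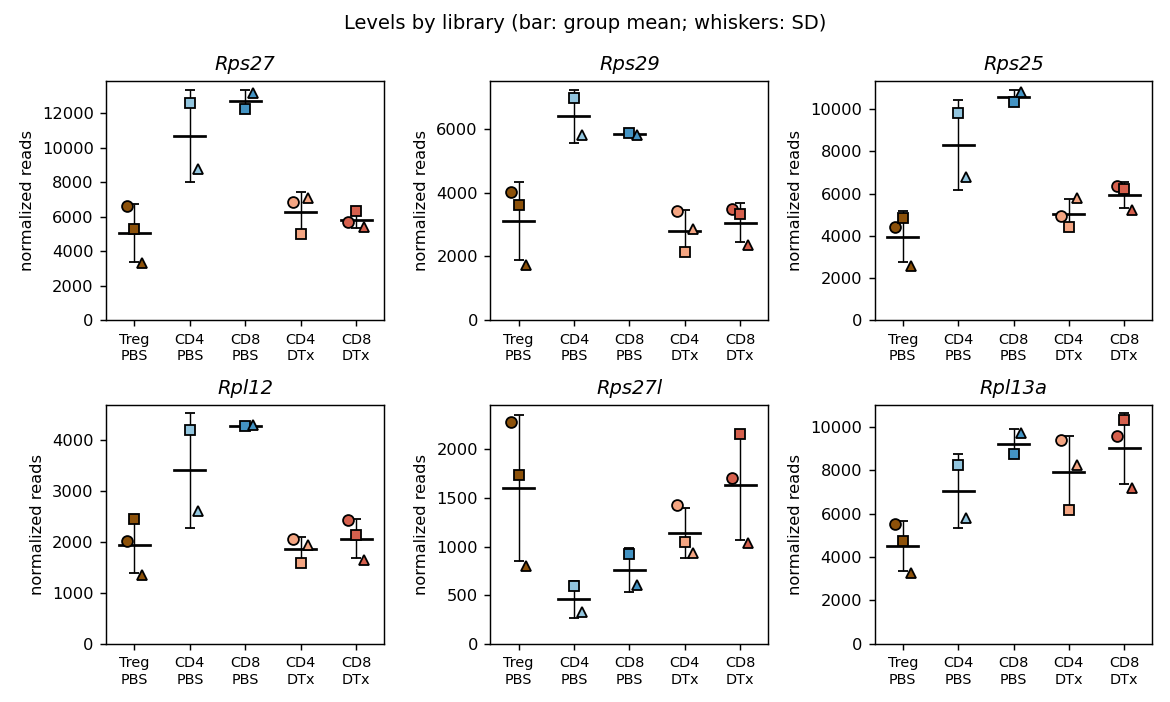
Normalized reads (vertical axes, from 0) of 6 members in the 13 libraries by group; circles, squares and triangles are replicates 1, 2 and 3, bars the group mean and whiskers the SD. Rps27, Rps29, Rps25 and Rpl12 are highest in CD4 PBS and CD8 PBS, Rps27l is lowest there, and Rpl13a is lowest in Treg PBS.

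The same question was put to Treg cells against CD8+ T cells, and ribosomal protein transcripts were again mostly lower in Treg cells. The log2 fold change was negative for 82 of 86 members with a median of -0.75 (0.02 for all genes tested), and the limma test called 17 members lower and 0 higher, beside a background of 18.7% of genes called in either direction and 6.75% called lower. Among called members the largest differences were in Rps25 (2.79-fold, log2 fold change -1.48 ± 0.27, limma adjusted p = 0.00266), Rps27 (2.62-fold, -1.39 ± 0.28), Rpl35 (2.56-fold, -1.36 ± 0.32), Rps18 (-1.27 ± 0.29) and Rps19 (-1.27 ± 0.30), the last 4 with limma adjusted p between 0.00493 and 0.0119. The copy Rps27rt differed by -1.39 ± 0.48 without being called (limma adjusted p = 0.0639). The 2 groups did not overlap for 71 of 86 members, all with Treg PBS below, where 58% of all genes did not overlap in either direction. Treg PBS lay below without overlap in 3576 of all 12667 genes. Of the 17 called, 10 were named for the small and 7 for the large subunit, the latter being Rpl35, Rpl13, Rpl12, Rpl13a, Rpl14, Rpl9 and Rpl10a.

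Rps18, which sits at the head of the small subunit, shows how this comparison is built. It stood at 9102, 9777 and 5421 normalized reads in the Treg libraries, 14737 and 8875 in CD4 PBS, 17731 and 20237 in CD8 PBS, 9554, 8689 and 10194 in CD4 DTx and 12579, 14327 and 9571 in CD8 DTx. The CD8 PBS libraries lay above all others, and Treg PBS replicate 3 lay below all others. Without that Treg library 11 members were called, and without CD8 PBS replicate 2 or 3 the count was 3 and 1. Leaving out CD8 DTx replicate 3, which enters only through the shared estimate of spread, raised it to 30. The members' median was -0.50 without Treg PBS replicate 3. With the replicate number as a block 62 members were called, 61 of them lower, where 23.5% of all genes were called. Centring on the members, which moved the median of all genes to 0.72, left 5 calls, with Rps25, Rps27, Rpl35 and Rps19 lower and Rps27l higher (centred log2 difference 1.69 ± 0.32, limma adjusted p = 0.0026). The stalk proteins, which recruit elongation factors to the large subunit, had log2 fold changes of -0.53 ± 0.32 (Rplp0), -0.91 ± 0.34 (Rplp1) and -0.86 ± 0.36 (Rplp2), and none of the 3 passed the test (limma adjusted p = 0.265, 0.0856 and 0.113).

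The DTx comparisons ask what Treg ablation did to the conventional cells. They share the PBS-treated CD4 and CD8 libraries with the Treg comparisons above, so the 2 kinds of result are not independent. In CD4+ T cells the members' median log2 fold change was -0.21 (-0.04 for all genes) and 62 of 86 were negative. The direction of this median rests on 1 library, since it was 0.03 without CD4 PBS replicate 2. It was -0.07 without CD4 DTx replicate 2, -0.42 without CD4 PBS replicate 3 and -0.35 without CD4 DTx replicate 1. The test called 1 member, lower after DTx, beside a background of 12.7% of genes called and 4.08% called lower. The groups did not overlap for 17 members, where 46.3% of all genes did not. CD4 DTx lay below in 12 of the 17, and in 2902 of all 12667 genes. Rps29, at 3423, 2132 and 2852 normalized reads in CD4 DTx against 6980.4 and 5809 in CD4 PBS, was 2.31-fold lower (log2 fold change -1.21 ± 0.33, limma adjusted p = 0.0330). In CD8+ T cells the median was -0.39 (-0.03 for all genes; -0.17 without CD8 DTx replicate 3), 78 of 86 were negative, and 2 members were called, both lower, beside a background of 10.9% of genes called and 3.47% called lower. The groups did not overlap for 44 members (51.2%), against 43.6% of all genes in either direction. CD8 DTx lay below in 43 of the 44, and in 2635 of all 12667 genes. Rps27 was 2.19-fold lower (log2 fold change -1.13 ± 0.28, limma adjusted p = 0.0234) and Rpl12, a large-subunit protein at the base of the stalk, was 2.10-fold lower (-1.07 ± 0.28, limma adjusted p = 0.0318).

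The mean of both DTx effects, which draws on 10 libraries, called 11 members (12.8%), 10 lower and 1 higher. The background was 27% of all genes (11.1% lower and 15.9% higher). The fit took all 10 libraries as independent. Yet same-numbered CD4 DTx and CD8 DTx libraries deviated together (r = 0.36, 0.207 and 0.59 over all genes). The SE of this mean effect may therefore be too small. Of the 10 members called lower, 8 belonged to the small subunit. Rps29 fell by 1.08 on the log2 scale (SE 0.24, limma adjusted p = 0.00542), Rpl12 by 0.95 (SE 0.20, limma adjusted p = 0.00427) and Rps27 by 0.95 (SE 0.20, limma adjusted p = 0.00415). Rps28 and Rps20, a pair of small-subunit proteins, fell by 0.83 and 0.82 (limma adjusted p = 0.0121 and 0.0161). Rps19, Rps25, Rpl35 and Rps24 fell by 0.80 to 0.67. Rps27l rose by 1.21 (SE 0.32, limma adjusted p = 0.0157). The difference between the CD4 and CD8 effects was called for 0 members by limma, edgeR and DESeq2 alike, and 0 reached an unadjusted p under 0.05 with limma (0.0474% of all genes were called). Leaving out CD4 PBS replicate 2 reduced the 11 calls to 4, and leaving out CD8 PBS replicate 3 reduced them to 5. In CD4+ T cells the 1 call was lost without CD4 PBS replicate 2 or 3 or CD4 DTx replicate 2 or 3. In CD8+ T cells both were lost without CD8 PBS replicate 2 or 3 or CD8 DTx replicate 2, and 1 was left without CD8 DTx replicate 1 or 3. The members' median in the mean DTx effect, -0.29, was -0.18 without CD4 PBS replicate 2 and also -0.18 without CD8 DTx replicate 3. With the replicate number as a block the counts were 7 in CD4+ T cells, 11 in CD8+ T cells and 27 in the mean effect, where 16%, 14.9% and 28.7% of all genes were called. Leaving out Treg PBS replicate 3, which enters only through the estimate of spread, gave 6, 6 and 15 calls.

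Rpl12 stood at 2017, 2448 and 1350.3 normalized reads in the Treg libraries, 4193 and 2598 in CD4 PBS, 4259.6 and 4277 in CD8 PBS, 2054, 1579.7 and 1928 in CD4 DTx and 2415, 2125 and 1642 in CD8 DTx. All PBS-treated conventional libraries lay above all others. The decrease in Rps27, Rps29, Rps25, Rps19, Rps20, Rps28, Rpl35 and Rpl12 was also larger than the members' common shift, since all 8 were still called in the mean DTx effect after centring on the members, a scaling added after the data were seen. After that centring Rpl29, Rpl36al, Rpl7a and Rpl27 were among those called higher than the average member. Rpl29, a small basic protein of the large subunit, led them with a centred log2 difference of 0.94 ± 0.17 (limma adjusted p = 0.00178). As deposited it stood at 4116 and 3124 normalized reads in CD4 PBS, 10353, 4956 and 5187 in CD4 DTx, 4563 and 4592 in CD8 PBS and 8516, 7438 and 4077 in CD8 DTx. It did not overlap in CD4+ T cells but did in CD8+ T cells, and its mean DTx effect of 0.66 ± 0.26 did not pass the test as deposited (limma adjusted p = 0.0833).

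Short members had a lower median DTx effect than long ones. Among the 81 members with a coding length, the median mean-DTx log2 effect was -0.42 for the 28 of at most 400 coding bases and -0.24 for the other 53, and Spearman's rho between coding length and effect was 0.35 across genes, given as a description because members share every library. Of the 10 members called lower, 7 were that short, and their number includes Rps29 with 168 and Rps28 with 207 coding bases. The other genes tested ran the opposite way, with a median effect of 0.35 for 549 short genes and -0.04 for 10840 longer ones. The same contrast held among other genes with a mean of at least 1000 normalized reads (0.41 for 217 short and 0.04 for 4381 longer genes), so short genes had the higher median outside the members and the lower one within them. Rps27l, of 252 coding bases, was an exception among the short members.

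**Figure D4:**
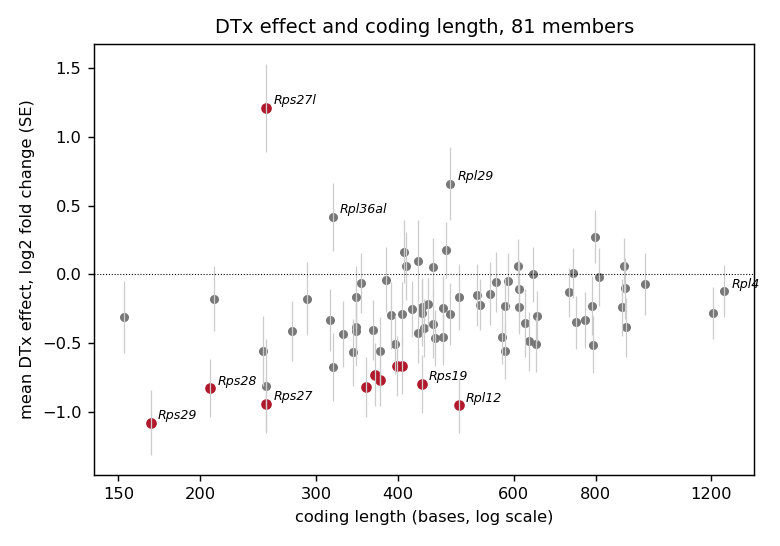
Mean DTx effect (vertical axis, log2 fold change with SE) of the 81 members with a coding length against that length in bases (horizontal axis, log scale); red points passed the test. Most of the 10 called decreases (7) lie at or below 400 bases, while Rps27l, at 252 bases, is the called increase.

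Set directly against Treg cells, the cells from DTx-treated mice differed in 1 called member. CD4 DTx minus Treg PBS had a median log2 difference of 0.13 (-0.04 for all genes), whose sign rests on 1 library (-0.14 without Treg PBS replicate 3 and -0.01 without CD4 DTx replicate 1, 0.24 to 0.26 without Treg PBS replicate 1 or 2 or CD4 DTx replicate 2). It had 0 calls by limma, with 2 members at an unadjusted p under 0.05, 0 calls by edgeR and 1 by DESeq2, beside a background of 7.91%. CD8 DTx minus Treg PBS had a median of 0.39 (-0.02 for all genes; 0.11 without Treg PBS replicate 3 and 0.59 without CD8 DTx replicate 3), positive in 83 of 86 members, with 1 call, higher in CD8 DTx, beside a background of 8.6% called and 3.88% called higher. That gene was Rpl13a, a large-subunit protein that also serves as a translational silencer in interferon-treated cells. It stood at 5513, 4748 and 3250.3 normalized reads in the Treg libraries, 8255 and 5816 in CD4 PBS, 8739 and 9691 in CD8 PBS, 9376, 6182 and 8248 in CD4 DTx and 9552, 10302 and 7169 in CD8 DTx. Every Treg PBS library lay below every other library. CD8 DTx was 2.02-fold higher than Treg PBS (log2 difference 1.02 ± 0.24, limma adjusted p = 0.0213), and CD4 DTx was 1.78-fold higher without passing the test (0.83 ± 0.24, limma adjusted p = 0.0575). Its mean DTx effect was 0.06 ± 0.19 on the log2 scale (limma adjusted p = 0.824). The call was lost without Treg PBS replicate 2 or 3 or CD8 DTx replicate 1 or 2, with log2 differences of 0.80 to 1.07 and limma adjusted p of 0.0535 to 0.0879.

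Between CD4+ and CD8+ T cells of the same treatment no member passed the test. CD4 PBS minus CD8 PBS was negative for 84 of 86 members with a median log2 difference of -0.40 (0 for all genes). It was -0.62 without CD4 PBS replicate 2 and -0.18 without CD4 PBS replicate 3. Yet limma, edgeR and DESeq2 called 0, and 1 member reached an unadjusted p under 0.05 with limma. The background was 1.08%. The 2 libraries on each side did not overlap for 74 members, all with CD8 PBS above, where 42.4% of all genes did not overlap in either direction. CD8 PBS lay above without overlap in 2750 of all 12667 genes. CD4 DTx minus CD8 DTx was negative for 80 of 86 with a median of -0.25 (-0.14 to -0.45 with 1 library of these groups left out), and 0 were called by all 3 tools (0 at an unadjusted limma p under 0.05), beside a background of 1.64%. Here only Rpl34 and Rpl39 did not overlap between the groups, both with CD4 DTx below, where 13.9% of all genes did not. CD4 DTx lay below without overlap in 998 of all 12667 genes.

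Paralog pairs shifted in their balance, given here as descriptions. Only uniquely mapped reads were counted, and the genes of a pair share unlike parts of their windows with other genes. That part was 22.4% in Rps27l and 98.6% in Rps27, 63.3% in Rpl36al and 85.5% in Rpl36a, and 57.3% in Rpl22l1 and 24.5% in Rpl22. The percentages are therefore compared between groups and do not tell which gene of a pair was higher. Rps27l amounted to 24.3% to 34.6% of Rps27 in the Treg PBS libraries, 3.69% and 4.70% in CD4 PBS, 4.57% and 7.50% in CD8 PBS, 13.2% to 21.2% in CD4 DTx and 19.1% to 34.3% in CD8 DTx. All libraries outside the PBS-treated conventional groups lay above both of these groups. Rpl36al, an intronless copy of Rpl36a with 87.7% coding identity that encodes a large-subunit protein, had more counted reads than its partner throughout. It amounted to 110% and 128% of Rpl36a in CD4 PBS and 109% and 116% in CD8 PBS, against 149% to 216% in Treg PBS, 204.9% to 281% in CD4 DTx and 223% to 282% in CD8 DTx. Here too the 2 PBS-treated conventional groups lay below all other libraries. The pair's own levels were not called in any comparison.

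Rpl22l1, whose product can replace RPL22 in the large subunit and which RPL22 restrains, moved less clearly against Rpl22. Its level was 57.8% to 70.5% of Rpl22 in the Treg libraries, 102% and 107% in CD4 PBS, 73.0% and 123% in CD8 PBS, 54.8% to 85.4% in CD4 DTx and 75.8% to 99.8% in CD8 DTx. Treg PBS lay below both CD4 PBS and CD8 PBS, and CD8 DTx overlapped with CD8 PBS. Rpl7l1 stayed between 16.9% and 29.2% of Rpl7, and Rps27rt between 1.56% and 2.74% of Rps27, and for Rps27rt the ranges of all groups overlapped. For Rpl7l1 the Treg libraries, at 23.5% to 28.1%, lay above those of CD8 PBS and CD8 DTx, which reached 22.7%, and overlapped with both CD4 groups. Rps4l, a transcribed pseudogene of Rps4x, ranged from 2.73 to 115 normalized reads over the libraries and was called nowhere.

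Genes that act around the ribosomal proteins were read from lists by role. Among 63 ribosome assembly factors, the nucleolar proteins that process ribosomal RNA and build the subunits, 23 were lower and 0 higher in Treg cells than in CD4 PBS, and 26 were lower and 0 higher than in CD8 PBS. The mean DTx effect called 32 lower and 0 higher, with 14 lower in CD4+ and 12 lower in CD8+ T cells taken alone. Of all genes 6.91%, 6.75%, 11.1%, 4.08% and 3.47% were called lower in these comparisons. The list's median log2 fold change was -0.67, -0.66 and -0.50 in the 2 Treg comparisons and the mean DTx effect, beside -0.32, -0.75 and -0.29 for the ribosomal proteins. Nle1, which acts in large-subunit maturation, stood at 132, 212 and 178 normalized reads in the Treg libraries, 836 and 696 in CD4 PBS, 684 and 745 in CD8 PBS, 91.6, 145 and 228 in CD4 DTx and 147, 113 and 323 in CD8 DTx. The PBS-treated conventional cells were at least 684 and all other libraries at most 323, and the mean DTx effect was a log2 fold change of -2.21 ± 0.35 (limma adjusted p = 0.000704). Utp20, of the small-subunit processome, and Rrp12 had log2 fold changes of -3.13 ± 0.64 and -2.55 ± 0.57 between Treg PBS and CD8 PBS (limma adjusted p = 0.00542 and 0.00839).

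Of 10 RNA polymerase I genes, which transcribe ribosomal RNA, 2 were lower in each Treg comparison, and 3 were lower and 1 higher in the mean DTx effect. Among all genes 6.91% and 6.75% were called lower in Treg PBS against CD4 PBS and CD8 PBS. In the mean DTx effect 11.1% of all genes were called lower and 15.9% higher. Polr1b, its second largest subunit, stood at 465, 521 and 647 normalized reads in the Treg libraries, 1529 and 1687 in CD4 PBS, 1779.9 and 2125 in CD8 PBS, 701, 602 and 753 in CD4 DTx and 621, 695 and 607 in CD8 DTx. The PBS-treated conventional libraries were again set apart from all others, and the mean DTx effect was -1.42 ± 0.16 (limma adjusted p = 6.29e-05). Polr1d, shared with RNA polymerase III, rose in the mean DTx effect by 0.80 ± 0.18 (limma adjusted p = 0.00717).

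Translation factors were called in both directions, and with both directions counted together at no more than the share of all genes. Of 16 elongation factors and other TOP transcripts, 1 was higher and 0 lower in Treg cells than in CD4 PBS, 2 were lower than in CD8 PBS (Eef1b2 and Eef1g, with log2 fold changes of -0.92 ± 0.22 and -0.88 ± 0.21, limma adjusted p = 0.0141 and 0.0115), and 3 were higher and 1 lower in the mean DTx effect. Their median in the mean DTx effect was -0.01. Of 29 initiation factors 1 was higher and 3 were lower in that effect, with a median of 0.12. Of all genes 6.75% were called lower in Treg PBS against CD8 PBS, and 15.9% higher and 11.1% lower in the mean DTx effect. The 2 of 16 lower than in CD8 PBS and the 3 of 16 higher in the mean DTx effect were above these shares. Fau and Rack1, ribosomal protein genes whose symbols the rule does not match, had mean DTx effects of 0.07 ± 0.23 and 0.10 ± 0.19 on the log2 scale, and neither was called in any comparison.

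Among 20 mTORC1 and Myc pathway genes, 3 rose and 3 fell in the mean DTx effect, a number near the 27% of all genes called, and in each Treg comparison 3 were higher and 1 was lower. The latter counts were near the share of all genes called, 20.4% against CD4 PBS and 18.7% against CD8 PBS. Myc stood at 1380.2, 2549 and 1954 normalized reads in the Treg libraries, 1980.2 and 6068 in CD4 PBS, 3308 and 8323 in CD8 PBS, 713, 838 and 1015 in CD4 DTx and 1541, 1717 and 1268 in CD8 DTx. Treg PBS overlapped with CD4 PBS, and both DTx groups lay below both PBS-treated conventional groups. The mean DTx effect was -1.92 ± 0.33 (limma adjusted p = 0.00115), although the 2 PBS replicates of a cell type differed widely. Eif4ebp1, the translation repressor that mTORC1 inactivates, rose by 1.48 ± 0.23 (limma adjusted p = 0.000605), and Mxi1, an antagonist of Myc, rose by 1.12 ± 0.23 (limma adjusted p = 0.00395). Sesn1, an inhibitor of mTORC1, fell from group means of 3228 and 2486 normalized reads in CD4 PBS and CD8 PBS to 760 and 680.2 in CD4 DTx and CD8 DTx (limma adjusted p = 4.53e-05 for the mean DTx effect). In Treg PBS its mean was 3493, so Treg PBS did not stand with the DTx groups for this gene. CD4 DTx and CD8 DTx were lower than Treg PBS by 2.20 and 2.32 on the log2 scale (limma adjusted p = 0.00056 and 0.000212).

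**Figure D5:**
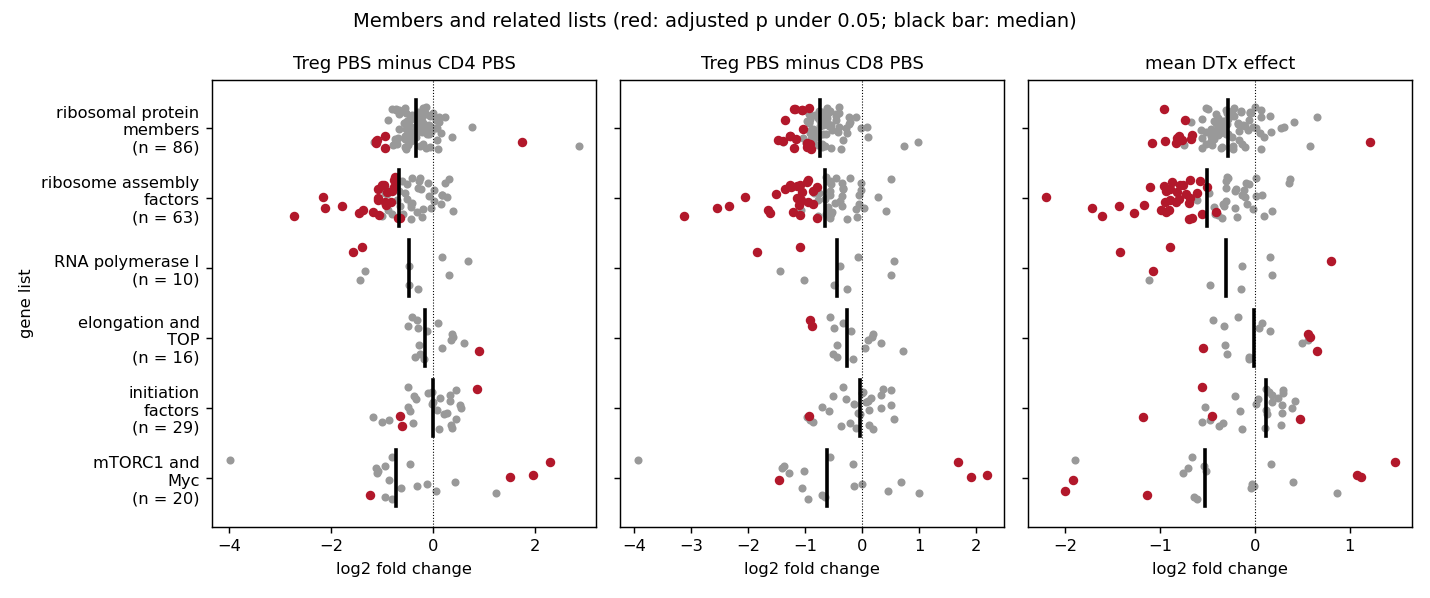
Log2 fold changes (horizontal axes) of the 86 members and of 5 related gene lists in the 2 Treg comparisons and the mean DTx effect; each point is a gene, red where it passed the test, and the black bar is the median. Ribosome assembly factors had medians of -0.67, -0.66 and -0.50 and no called increase, and the elongation and initiation lists lay near 0 in the mean DTx effect.

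RNA of other cells also differed between groups. Of 5 melanocyte markers 4 were in the table, and their sum was 171 to 1197 normalized reads in the PBS libraries and 60.7 to 170.2 in the DTx libraries. The 3 erythroid genes found summed to 948 to 6570.2 in the PBS libraries and 0 to 1175 in the DTx libraries. The 7 myeloid markers summed to between 88.8 and 3812, and the 4 B cell markers to between 92.6 and 1296. Their part in the results was not tested.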

How the data were processed

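RNA sequencing was done on T cell populations sorted from B16-F10 tumors, 13 libraries in 5 groups by sample title. The authors trimmed the reads with Cutadapt, aligned them to the mouse genome NCBIM37 (mm9) with hisat2 and kept uniquely mapped reads. The counting tool, its strand setting and tool versions are not given in the sources used here. The deposited signal values, called FPM by the authors, are read counts divided by 1 size factor per library. Dividing by the value of 1 read (0.661 to 1.37 units) returned whole reads for 100% of values within 0.01 reads, 15947556 to 34140486 per library, so 3 reads, the level up to which a gene may be missed, equal 1.98 to 4.10 units. Counting error only is covered by that floor. Of 12963 rows, 53 were at 0 throughout and 21 carried symbols turned into dates.

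The main test was limma 3.58.1 (R 4.3.3) with a mean trend on log2(value + 1) over all 13 libraries, for the 12667 genes with at least 10 units in at least 2 libraries, which kept all 86 members. Errors with ± are SD for levels and SE for log2 fold changes. Genes at a Benjamini-Hochberg adjusted p under 0.05 over all genes were called. This scale understates changes of low genes. edgeR 4.0.16 and DESeq2 1.42.0 on the recovered reads, other scalings, filters and left-out libraries were alternatives. The script was tested on simulated data. Sequences came from RefSeq and GENCODE M21 (GRCm38), not from the build of the files.

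Members and gene lists were chosen with earlier results of these data known. Named were up to 5 called members a direction by size, paralogs with their partners, the stalk proteins, the extremes of level and spread, and up to 2 called genes a direction in each related list. Rpl29, Rpl7a, Rpl27, Rpl34, Rpl39 and further called members were named after their values were seen. The labels do not say that replicates were separate animals, so p-values measure the spread between these samples. Replicate numbers paired CD4 DTx with CD8 DTx, where same-numbered libraries deviated together (r = 0.36, 0.207 and 0.59 over all genes). The block changed no call there. The other comparisons shared only 2 numbers or held a pair with r under 0.1, so whether their numbers pair the samples is not settled. The study gives independent days for the replicates without tying a number to a day, and the block is given beside those results. Some items are not reported here.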

Additional observations from a re-analysis of the deposited data

How the results depend on the processing

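In each sentence the counts are ribosomal protein members called, and a library left out is one of the groups compared. For Treg PBS against CD4 PBS the 6 calls became 12 with the same total in every library, 3 without the mean trend, 0 with only the groups compared, 17 with the replicate block, 0 with a 4-fold minimum and 0 at adjusted p under 0.01, and 1 to 5 with 1 library left out. For Treg PBS against CD8 PBS the 17 became 40 with the same total, 29 by DESeq2, 11 with only the groups compared, 62 with the replicate block, 5 with members centred, 0 at 4-fold and 3 at adjusted p under 0.01, and 1 to 21 with 1 library left out. For the DTx effect in CD4+ T cells the 1 became 4 with the same total, 0 with TMM computed without the members, 3 by DESeq2, 0 without the trend, 0 with only the groups compared, 7 with the replicate block, 3 with members centred, 0 at 4-fold and 0 at adjusted p under 0.01, and 0 to 1 with 1 library left out. For that in CD8+ T cells the 2 became 7 with the same total, 5 by DESeq2, 0 without the trend, 0 with only the groups compared, 11 with the replicate block, 5 with members centred, 0 at 4-fold and 0 at adjusted p under 0.01, and 0 to 1 with 1 library left out. For the mean DTx effect the 11 became 28 with the same total, 27 with the replicate block, 0 at 4-fold and 3 at adjusted p under 0.01, and 4 to 14 with 1 library left out. For CD4 DTx against Treg PBS the 0 became 1 by DESeq2, 2 with the replicate block and 1 with members centred, and 0 to 1 with 1 library left out. For CD8 DTx against Treg PBS the 1 became 0 without the trend, 0 with only the groups compared, 2 with the replicate block, 0 at 4-fold and 0 at adjusted p under 0.01, and 0 to 2 with 1 library left out.

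For the related lists together, Treg PBS against CD4 PBS had 33 calls, 11 with members centred, 4 at 4-fold, 13 at adjusted p under 0.01 and 9 to 33 with 1 library left out. Treg PBS against CD8 PBS had 35, then 5 at 4-fold, 22 at adjusted p under 0.01 and 8 to 36 with 1 left out. The DTx effect in CD4+ T cells had 20, then 31 with the same total, 31 by DESeq2, 5 with members centred, 3 at 4-fold, 9 at adjusted p under 0.01 and 3 to 21 with 1 left out. That in CD8+ T cells had 18, then 31 with the same total, 29 by DESeq2, 2 with only the groups compared, 1 at 4-fold, 6 at adjusted p under 0.01 and 2 to 29 with 1 left out. The mean DTx effect had 50, then 27 with members centred, 2 at 4-fold, 28 at adjusted p under 0.01 and 28 to 65 with 1 left out. CD4 DTx against Treg PBS had 5, then 9 by DESeq2, 3 without the trend, 2 with only the groups compared, 2 with members centred, 1 at 4-fold, 1 at adjusted p under 0.01 and 2 to 4 with 1 left out. CD8 DTx against Treg PBS had 3, then 6 by DESeq2, 7 with the replicate block, 1 at 4-fold and 2 to 6 with 1 left out. CD4 DTx against CD8 DTx had 0, then 1 by DESeq2. Without the 5 highest members the summed level was 467027 normalized reads in CD4 PBS, 609956 in CD8 PBS and 399820 in CD4 DTx. With 1 library left out, the summed levels ranged over 428303 to 535822 in Treg PBS, 504719 to 682031 in CD4 PBS, 738707 to 803636 in CD8 PBS, 469934 to 565735 in CD4 DTx and 576631 to 702977 in CD8 DTx.

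The cause of these changes was not tested. For the named genes no alternative reversed a direction, 1558 values kept their side of the threshold and 521 did not. Some alternatives could not reverse a direction, because they kept the log2 fold change of the main fit. These were the stricter thresholds, the other filters, the fit without the trend and the fit of only the groups compared. With the same total in every library the median of all genes was -0.23 in the DTx effect on CD8+ T cells (-0.03 as deposited). In the comparisons with Treg PBS and between PBS and DTx it is not settled that the replicate number pairs the samples. The replicate block raised the member counts there, as given above, and Treg PBS replicate 2 did not correlate best with its own number in CD4 DTx (r = 0.0366) or CD8 DTx (r = 0.00623). A library left alone in its group is assumed to vary like the other groups.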
